A study of Mus musculus with 16 samples.

Results

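Macrophages answer interferon-gamma partly by changing the surface and secreted molecules with which they stimulate or restrain T cells, and 9 such genes were followed here: Cd274, Pdcd1lg2, Cd40, Cd80, Cd86, Icosl, Havcr2, Lgals9 and Cd69. They were taken by symbol from the annotation of the array platform, and all 9 were found among the 19938 genes with a symbol of their own. Messenger RNA was measured on 16 Affymetrix mouse gene arrays. The cells were macrophages grown from bone marrow with L-cell conditioned medium, a source of the growth factor that macrophages need. All 6 groups came from H3.3-HA knock-in mice, in which the replacement histone H3.3 carries an HA tag, so no group came from mice without the tag. Cells labelled Pretreated were measured on 4 arrays at 0 h of interferon-gamma, on 2 at 3 h and on 2 at 6 h. Cells labelled Naïve had the same numbers of arrays at these times. The titles of the Pretreated arrays carry a token for earlier interferon; the sources used here state neither its dose nor how long it lasted, nor whether a rest followed. No arrays of unstimulated cells at 3 h or 6 h are among the 16, so interferon-gamma and time in culture cannot be told apart.

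T cells need a second signal beside the antigen receptor. Cd80 and Cd86, the B7 proteins, give it through CD28 and withdraw it through CTLA-4, Icosl gives it through ICOS, and Cd40 carries the help of T cells back into the antigen-presenting cell. Cd274 (PD-L1) and Pdcd1lg2 (PD-L2) bind the inhibitory receptor PD-1. Havcr2 (TIM-3) is an inhibitory receptor that exhausted T cells and myeloid cells carry, and Lgals9 encodes galectin-9, a sugar-binding protein described as one of its ligands. Cd69 is an early activation antigen whose protein takes the exit receptor S1PR1 away from the cell surface. In macrophages, interferon-gamma acts through JAK kinases and, downstream, IRF1, and Cd274 is among the textbook targets of that chain.

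The promoter windows of 3 members are shown because these genes stand for the patterns below: Cd274 was induced, Havcr2 fell in naive cells and Lgals9 changed in no comparison. Each window runs from 250 bases before to 50 bases after a start that a RefSeq promoter table of mouse build GRCm38.p6 gives for the gene, read on the strand of the gene. For Cd274 this start lies inside the span that the annotation gives the gene. For Havcr2 and Lgals9 it is where that span begins, read on the strand of the gene. The Cd274 window is chr19:29367188-29367487 on the plus strand, the Havcr2 window is chr11:46454681-46454980 on the plus strand and the Lgals9 window is chr11:78984875-78985174 on the minus strand. Capitals mark matches to the core of the interferon-stimulated response element, the site of interferon regulatory factors, here on the strand opposite to the gene.
Cd274: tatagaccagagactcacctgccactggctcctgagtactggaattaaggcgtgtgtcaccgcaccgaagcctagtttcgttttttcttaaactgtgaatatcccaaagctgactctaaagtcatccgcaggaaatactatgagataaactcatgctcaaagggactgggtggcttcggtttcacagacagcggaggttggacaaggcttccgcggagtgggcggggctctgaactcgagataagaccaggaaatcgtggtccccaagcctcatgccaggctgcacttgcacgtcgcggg
Havcr2: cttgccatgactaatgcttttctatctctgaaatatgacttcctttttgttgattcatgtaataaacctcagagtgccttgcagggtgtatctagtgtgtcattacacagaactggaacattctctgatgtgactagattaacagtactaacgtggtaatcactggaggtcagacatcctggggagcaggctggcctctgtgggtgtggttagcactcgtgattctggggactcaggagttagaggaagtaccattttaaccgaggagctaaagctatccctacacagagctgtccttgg
Lgals9: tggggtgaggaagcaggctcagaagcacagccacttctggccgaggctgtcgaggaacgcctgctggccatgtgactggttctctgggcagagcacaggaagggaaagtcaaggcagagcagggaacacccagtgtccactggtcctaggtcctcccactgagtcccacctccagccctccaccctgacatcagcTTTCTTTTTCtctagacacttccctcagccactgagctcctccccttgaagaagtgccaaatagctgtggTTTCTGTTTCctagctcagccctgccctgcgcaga
Windows were given for 6 of the 9 members, namely Cd274, Pdcd1lg2, Cd80, Icosl, Havcr2 and Lgals9. Both strands were searched for the response element core, which 1131 of 32851 mouse promoter windows (3.44%) hold. The response element core matched at 2 places in the Lgals9 window, at -55 and at 15 bases from that start, and in none of the other 5. A match describes letters and not a bound site.

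The arrays came in 2 sets of 8, read from the numbering in their titles. The 6 h arrays were in set 1 beside 0 h replicates 1 and 2, and the 3 h arrays in set 2 beside 0 h replicates 3 and 4. Median log2 intensities were 7.151 to 7.226 in set 1 and 6.886 to 6.997 in set 2, so levels are compared only within a set, and a difference between 3 h and 6 h cannot be told apart from one between the sets. The arrays of a group within a set correlated at 0.9896 to 0.9950 across genes. Since nothing in the labels ties an array to its own culture or animal, the p-values reflect array-to-array spread, which may be technical. The 9 measured macrophage markers averaged 12.51 to 12.83 on every array, and Fcgr1, Cd14 and Spi1 among them passed in at least 1 comparison. The listed markers of T cells, B cells, NK cells, dendritic cells and neutrophils averaged between 4.95 and 7.05, and of these marker genes 1 passed a test, the B-cell gene Cd79b, lower in naive cells at 6 h, at 8.54 against 9.12 at 0 h, and in the naive change at 6 h minus that at 3 h. In bulk RNA, fewer cells of a type and less RNA per cell cannot be told apart.

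Interferon-gamma was followed by higher Cd40, Cd86 and Cd69 in pretreated and in naive cells at both times, by higher Cd274 in pretreated cells at 3 h and in naive cells at both times, by lower Havcr2 in naive cells, and by no called change of Cd80 or Lgals9. A gene is called changed at an adjusted p under 0.05, from a limma fit over all 19938 genes with Benjamini-Hochberg adjustment. In pretreated cells at 3 h, 4 of the 9 genes rose (Cd274, Cd40, Cd86 and Cd69) and none fell, where 1.86% of all genes rose and 0.998% fell. In pretreated cells at 6 h, 3 rose (Cd40, Cd86 and Cd69) and none fell, where 2.89% of all genes rose and 2.76% fell. In naive cells at 3 h, 4 rose (Cd274, Cd40, Cd86 and Cd69) and 1 fell (Havcr2), where 3.37% of all genes rose and 2.09% fell. In naive cells at 6 h, 6 rose (Cd274, Pdcd1lg2, Cd40, Cd86, Icosl and Cd69) and 1 fell (Havcr2), where 7.48% of all genes rose and 10.8% fell. The median log2 change of the 9 genes was 0.68 in pretreated cells and 0.62 in naive cells at 3 h, and 0.77 and 1.64 at 6 h, while the median over all genes lay between -0.03 and 0.00. The members were picked with results of these data known, so these counts and medians describe them and are no test of the group.

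**Figure D1:**
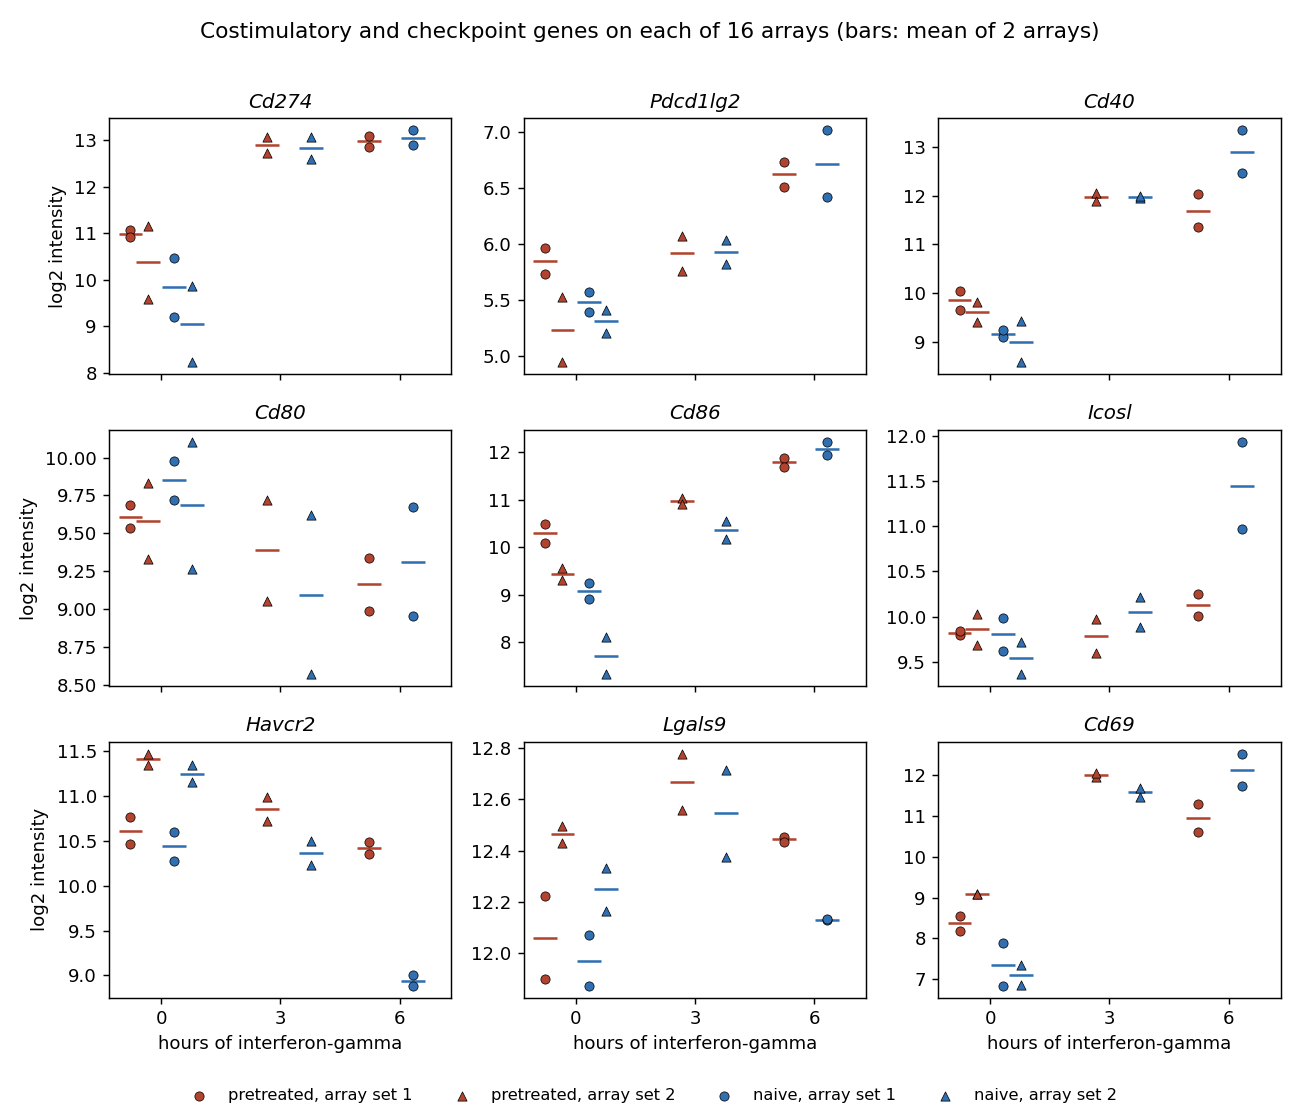
Log2 intensity of the 9 genes (vertical axes, scaled per gene) on each of 16 arrays against hours of interferon-gamma (0, 3 and 6). Pretreated arrays are red and stand left of the blue naive arrays, circles are array set 1, triangles array set 2, and a bar is the mean of 2 arrays; Cd69 is between 10.60 and 12.53 on every array at 3 h or 6 h and at most 9.08 at 0 h.

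**Figure D2:**
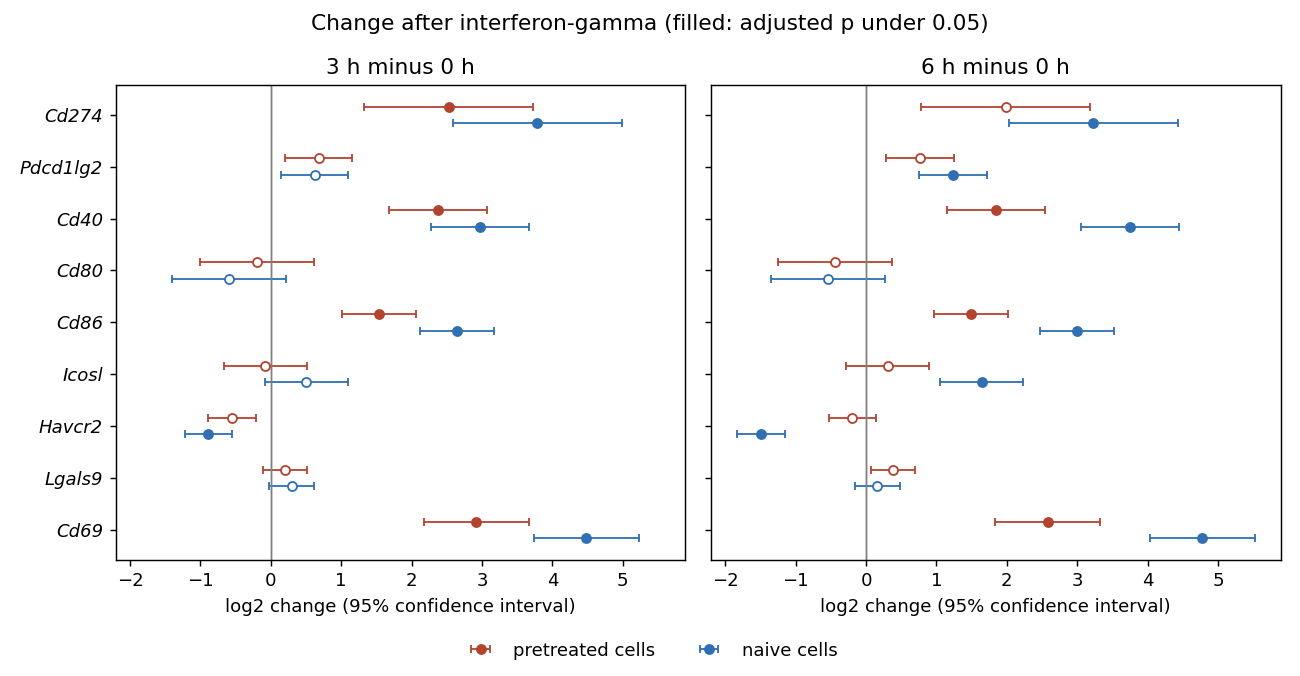
Log2 change of each gene at 3 h and at 6 h against 0 h of the same cells and array set (horizontal axis), with 95% confidence intervals, for pretreated cells (red, upper) and naive cells (blue, lower), 2 arrays against 2. Filled points passed an adjusted p of 0.05; Cd69 in naive cells lies furthest right at 4.48 and 4.77, and Havcr2 in naive cells furthest left at 6 h.

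Before the interferon-gamma of the time course, pretreated cells differed from naive cells in 2 of the 9 genes, Cd86 and Cd69, both higher, where 0.808% of all genes were higher and 0.155% lower. At 3 h none of the 9 differed between pretreated and naive cells, where 0.015% of all genes (3 genes) did. Of the 9, 2 had an unadjusted p under 0.05, as did 3.7% of all genes. At 6 h Havcr2 alone differed and was higher in pretreated cells, where 0.431% of all genes were higher and 0.271% lower. Here 4 of the 9 and 12.3% of all genes had an unadjusted p under 0.05. The change since 0 h in pretreated cells minus that in naive cells was tested as a contrast of its own. At 3 h it passed for none of the 9, where 0.0802% of all genes passed. Of the 9, 2 had an unadjusted p under 0.05, as did 1.66% of all genes. At 6 h this contrast passed for Havcr2, in the positive direction, where 0.0301% of all genes passed upwards and 0.115% downwards. Here 5 of the 9 and 9.12% of all genes had an unadjusted p under 0.05. For the naive change at 6 h minus that at 3 h, 2 of the 9 and 13.3% of all genes had an unadjusted p under 0.05. After adjustment this last contrast passed for none of the 9, where 1.73% of all genes passed. Icosl passed it without naive 6 h replicate 2 (1.62, adjusted p = 0.0239). Several of these comparisons share arrays, so they are not all independent of each other.

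**Figure D3:**
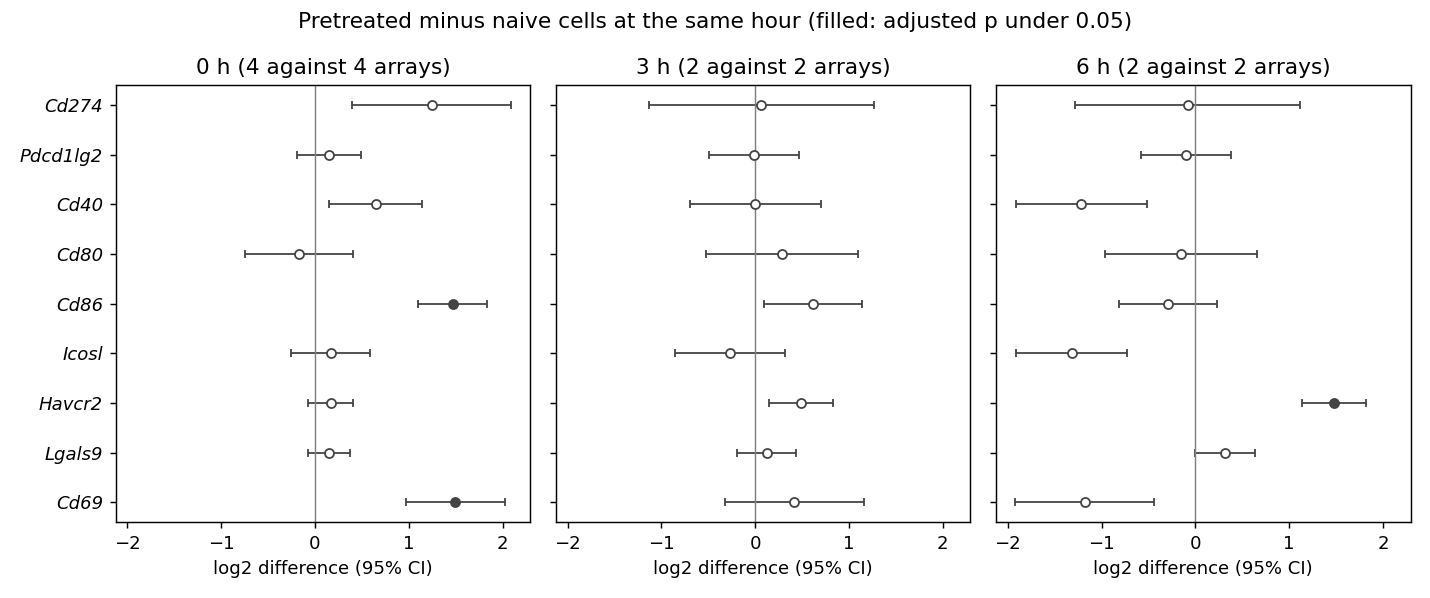
Log2 intensity in pretreated minus naive cells at 0 h (4 against 4 arrays, both sets), 3 h and 6 h (2 against 2 each), one row per gene, with 95% confidence intervals on the horizontal axis. Filled points passed an adjusted p of 0.05, which Cd86 (1.47) and Cd69 (1.5) did at 0 h and Havcr2 (1.48) did at 6 h.

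Cd86 (array feature 10439312) rose at both times in both kinds of cells and was already higher in pretreated cells at 0 h. Cd86 stood at 11.04 and 10.92 in pretreated cells at 3 h, against 9.31 and 9.57 in pretreated cells at 0 h of the same set. It stood at 10.56 and 10.16 in naive cells at 3 h, against 8.11 and 7.32 at 0 h. No array at 3 h overlapped the 0 h arrays of its own cells, and both 0 h pretreated arrays were above both 0 h naive arrays. In set 1, Cd86 was 11.89 and 11.69 in pretreated cells at 6 h, against 10.10 and 10.50 at 0 h. It was 12.22 and 11.94 in naive cells at 6 h, against 9.25 and 8.91 at 0 h. Here too the later arrays lay above the 0 h arrays, and at 6 h the naive arrays lay above the pretreated ones. The log2 change at 3 h was 1.54 ± 0.24 (SE) in pretreated cells (2.91-fold, adjusted p = 0.00364) and 2.64 ± 0.24 in naive cells (6.25-fold, adjusted p = 2.37e-05). At 6 h it was 1.49 ± 0.24 in pretreated cells (2.81-fold, adjusted p = 0.00278) and 3.00 ± 0.24 in naive cells (7.98-fold, adjusted p = 4.86e-06). The difference between these changes was -1.10 ± 0.34 at 3 h (adjusted p = 1) and -1.51 ± 0.34 at 6 h (adjusted p = 0.147) and passed at neither time.

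At 0 h Cd86 averaged 9.87 in pretreated cells and 8.40 in naive cells over 4 arrays each, a difference of 1.47 ± 0.17 on the log2 scale (2.77-fold, adjusted p = 0.000605). The pretreated arrays were above the naive arrays within each set. Within set 1 alone the difference was 1.22 with an adjusted p of 0.0557, and within set 2 alone it was 1.72 with an adjusted p of 0.0412. Without a term for the array set the 0 h difference had an adjusted p of 0.134, and the pretreated 3 h change was 1.11 with an adjusted p of 0.265. At 3 h and 6 h the differences between pretreated and naive cells, 0.62 ± 0.24 and -0.29 ± 0.24, did not pass.

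Cd80 (array feature 10435704), the other B7 ligand of CD28 and CTLA-4, was called in none of the 10 comparisons of the fit used here. Cd80 stood at 9.72 and 9.05 in pretreated cells at 3 h, against 9.83 and 9.33 at 0 h, and at 9.34 and 8.99 in pretreated cells at 6 h, against 9.68 and 9.54 at 0 h. In naive cells it was 9.62 and 8.57 at 3 h, against 10.10 and 9.27 at 0 h. It was 9.67 and 8.95 in naive cells at 6 h, against 9.98 and 9.72 at 0 h. The arrays overlapped at 3 h and did not at 6 h, and the first array of each pair was the higher one throughout. The fit does not take up this shared order. With array position added as a block, Cd80 was called lower in naive cells at 3 h and 6 h (limma, adjusted p = 0.0322 and 0.0235). The labels do not say that positions pair the arrays. The naive change was -0.59 on the log2 scale at 3 h (95% confidence interval -1.40 to 0.22) and -0.54 at 6 h (-1.35 to 0.27), and the pretreated changes were -0.20 (-1.0 to 0.62) and -0.45 (-1.26 to 0.36). The array holds a second feature for Cd80, whose changes against 0 h ran from -0.63 to -0.01 and which also passed in no comparison.

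Icosl (array feature 10364361), the ligand of ICOS, passed in 1 of the 4 comparisons with 0 h, where it rose in naive cells at 6 h. It stood at 10.25 and 10.01 in pretreated cells at 6 h, against 9.80 and 9.84 at 0 h. It stood at 11.93 and 10.96 in naive cells at 6 h, against 9.62 and 9.99 at 0 h. Both naive 6 h arrays were above the other 6 arrays of set 1, and they lay 0.97 apart. At 3 h Icosl was 9.97 and 9.59 in pretreated cells, against 9.69 and 10.03 at 0 h. It was 10.22 and 9.89 in naive cells at 3 h, against 9.37 and 9.73 at 0 h. The set 2 arrays of the pretreated groups overlapped, and those of the naive groups did not. The naive 6 h change was 1.64 ± 0.27 on the log2 scale (3.12-fold, adjusted p = 0.00101), and the pretreated 6 h change was 0.31 ± 0.27 (adjusted p = 0.793). At 6 h Icosl was lower in pretreated than in naive cells by a log2 difference of -1.32 ± 0.27, whose adjusted p of 0.0521 missed the threshold, as did the difference of the 2 changes, -1.33 ± 0.38 (adjusted p = 0.239). Without replicate 2 of the naive 6 h arrays these values were -1.80 (adjusted p = 0.00399) and -1.82 (adjusted p = 0.0244).

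Of 15 further genes of the B7 and CD28 families and their partners, 3 passed in naive cells at 6 h and 1 in pretreated cells at 6 h. Tnfrsf14, the receptor HVEM that binds BTLA, rose at 6 h by 0.65 ± 0.17 in pretreated cells (adjusted p = 0.0495) and by 0.86 ± 0.17 in naive cells (adjusted p = 0.00406). Vsir, which encodes the inhibitory B7-like protein VISTA, fell by 0.81 ± 0.20 in naive cells at 6 h (adjusted p = 0.0124), with means of 12.20 at 6 h and 13.01 at 0 h. Icos, the receptor of Icosl, was measured at 6.60 at 6 h against 7.07 at 0 h in naive cells, a fall of 0.48 that passed (adjusted p = 0.0351). In pretreated cells at 6 h 1 of the 15 rose, where 2.89% of all genes did. In naive cells at 6 h 1 rose and 2 fell, where 7.48% of all genes rose and 10.8% fell, so these shares are near those of all genes. None passed in the other 8 comparisons. The median of the 15 lay between -0.10 and 0.12 in every comparison. Their changes ran from -1.74 to 0.46 in naive cells at 3 h and from -2.74 to 0.86 at 6 h. In pretreated cells they ran from -1.45 to 0.37 at 3 h and from -1.51 to 0.65 at 6 h. The lowest value of each of these ranges did not pass.

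Cd40 (array feature 10478678), the receptor through which CD40 ligand on T cells activates macrophages, rose in all 4 comparisons with 0 h. It stood at 12.06 and 11.89 in pretreated cells at 3 h, against 9.40 and 9.81 at 0 h. It stood at 11.96 and 11.99 in naive cells at 3 h, against 8.57 and 9.42 at 0 h. Pretreated and naive arrays overlapped at 3 h and lay well above all 4 arrays of 0 h in that set. At 6 h Cd40 was 12.03 and 11.36 in pretreated cells, against 10.04 and 9.65 at 0 h. It was 13.36 and 12.46 in naive cells at 6 h, against 9.10 and 9.23 at 0 h. At 6 h both naive arrays lay above both pretreated arrays, and at 0 h of that set both lay below them. The log2 change at 3 h was 2.37 ± 0.32 in pretreated cells (5.17-fold, adjusted p = 0.00138) and 2.98 ± 0.32 in naive cells (7.87-fold, adjusted p = 8.87e-05). At 6 h it was 1.85 ± 0.32 in pretreated cells (3.6-fold, adjusted p = 0.0043) and 3.75 ± 0.32 in naive cells (13.4-fold, adjusted p = 7.44e-06). Without replicate 1 of the pretreated 6 h arrays the pretreated 6 h change was 1.51 with an adjusted p of 0.0625.

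The 6 h change of Cd40 in pretreated cells minus that in naive cells was -1.90 ± 0.45 on the log2 scale (adjusted p = 0.169), so it did not pass, and neither did the difference of levels at 6 h, -1.22 ± 0.32 (adjusted p = 0.109). Without replicate 2 of the naive 6 h arrays both passed, at -2.34 (adjusted p = 0.0374) and -1.66 (adjusted p = 0.0311). At 3 h the levels in pretreated and naive cells differed by 0.00 ± 0.32.

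Of the 11 measured genes that carry the signal of Cd40 to NF-kB, 1 rose in pretreated cells at 3 h, none at 6 h, 2 rose in naive cells at 3 h and 6 at 6 h, and none fell. Of all genes 1.86%, 2.89%, 3.37% and 7.48% rose in these comparisons. Birc3, which encodes the ubiquitin ligase cIAP2, rose by 0.83 ± 0.17 in pretreated cells at 3 h (adjusted p = 0.0224). In naive cells it rose by 1.04 ± 0.17 at 3 h (adjusted p = 0.00277) and by 1.19 ± 0.17 at 6 h (adjusted p = 0.000402). Traf1, an adaptor of TNF-family receptors, rose by 2.11 ± 0.36 in naive cells at 6 h (4.33-fold, adjusted p = 0.00116). Birc2, Tank, Relb and Traf2 rose in naive cells at 6 h by 0.83 to 1.48, and the adaptor Traf5 rose at 3 h by 0.71. The median of the 11 was 0.29 in pretreated and 0.96 in naive cells at 6 h, against -0.03 and -0.01 over all genes. Traf3 and Nfkb1 were not measured under a symbol of their own.

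Cd274 (array feature 10462390), which encodes PD-L1, reached nearly the same level in pretreated and naive cells under interferon-gamma. It stood at 13.07 and 12.74 in pretreated cells at 3 h, against 11.17 and 9.59 at 0 h. It stood at 13.08 and 12.59 in naive cells at 3 h, against 9.87 and 8.23 at 0 h. The 3 h arrays lay above all 0 h arrays of the set, and the 2 arrays of 0 h were 1.58 apart in pretreated cells and 1.65 apart in naive cells. In set 1 Cd274 was 13.09 and 12.87 in pretreated cells at 6 h, against 11.07 and 10.92 at 0 h. It was 13.22 and 12.90 in naive cells at 6 h, against 10.46 and 9.21 at 0 h. Pretreated and naive arrays overlapped at 6 h, and at 0 h of that set both pretreated arrays lay above both naive ones. The log2 change at 3 h was 2.53 ± 0.55 in pretreated cells (5.76-fold, adjusted p = 0.0282) and 3.79 ± 0.55 in naive cells (13.8-fold, adjusted p = 0.00105). At 6 h it was 1.98 ± 0.55 in pretreated cells (adjusted p = 0.059, not passed) and 3.23 ± 0.55 in naive cells (9.35-fold, adjusted p = 0.00128). Without pretreated 0 h replicate 4 the pretreated 3 h change was 1.73 (adjusted p = 0.303), and without pretreated 3 h replicate 1 or 2 it was 2.36 (adjusted p = 0.131) or 2.69 (adjusted p = 0.124). The pretreated 6 h change of 1.98 passed, at an adjusted p of 0.0265 to 0.0482, when any 1 of 6 other 0 h arrays (naive 0 h replicates 1 to 4, pretreated 0 h replicates 3 and 4) was left out.

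Pretreated minus naive levels of Cd274 were 1.24 at 0 h (95% confidence interval 0.39 to 2.09, adjusted p = 0.27), 0.07 at 3 h (-1.14 to 1.27) and -0.08 at 6 h (-1.28 to 1.12). None passed. The 0 h difference was 1.16 within set 1 and 1.33 within set 2.

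Pdcd1lg2 (array feature 10462398), which encodes PD-L2, was measured at low intensity. It stood at 6.07 and 5.76 in pretreated cells at 3 h, against 5.53 and 4.94 at 0 h, and at 6.73 and 6.51 in pretreated cells at 6 h, against 5.96 and 5.73 at 0 h. In naive cells it was 6.03 and 5.82 at 3 h, against 5.41 and 5.21 at 0 h. It was 7.01 and 6.41 in naive cells at 6 h, against 5.57 and 5.39 at 0 h. Later arrays lay above 0 h arrays of the same cells in each set, and 13 of the 16 values were below 6.5, the level under which features are treated here as dim. The naive 6 h change of 1.23 ± 0.22 on the log2 scale passed (adjusted p = 0.00176), but its size is uncertain because the 0 h values are dim. The other changes against 0 h were 0.62 in naive cells at 3 h, 0.68 in pretreated cells at 3 h and 0.77 at 6 h, with adjusted p of 0.161, 0.159 and 0.068. The last of these passed, at an adjusted p of 0.0406 to 0.0414, without naive 6 h replicate 1 or 2 or pretreated 0 h replicate 3 or 4. Pretreated and naive cells differed by -0.10 to 0.15 at the 3 times, with no call.

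Cd274 and Pdcd1lg2 are neighbours on mouse chromosome 19, and listed genes around them were read in chromosome order. The list need not hold every gene of the region. From one side the order is Ak3, Rcl1, Jak2, Insl6, Plgrkt, Cd274, Pdcd1lg2, Ric1, Ermp1, Mlana and Uhrf2. In naive cells at 6 h 5 of these 11 genes rose and none fell, where 7.48% of all genes rose and 10.8% fell. Beside Cd274 and Pdcd1lg2 they were Jak2, the kinase of the interferon-gamma receptor, at 1.61 ± 0.18 (adjusted p = 4.99e-05), Ric1 at 0.75 ± 0.20 (adjusted p = 0.0219) and Insl6 at 0.72 ± 0.22 (adjusted p = 0.0416). At 3 h Cd274 and Jak2 rose in naive cells, Jak2 by 1.07 ± 0.18 (adjusted p = 0.00263), where 3.37% of all genes rose. In pretreated cells Cd274 alone rose at 3 h, where 1.86% of all genes rose, and none of the 11 passed at 6 h. Plgrkt, the next gene to Cd274 in this order, passed in none of the 4.

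**Figure D4:**
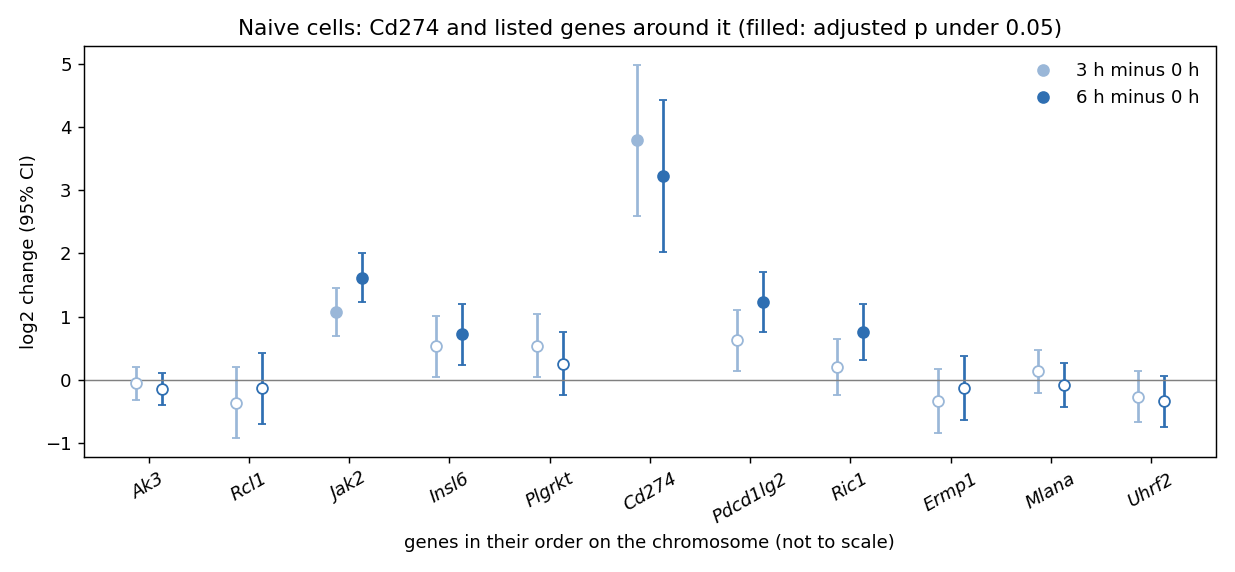
Log2 change in naive cells at 3 h (light) and 6 h (dark) against 0 h, with 95% confidence intervals, for Cd274, Pdcd1lg2 and 9 listed genes around them in their order on the chromosome (spacing not to scale). Filled points passed an adjusted p of 0.05: Cd274 and Jak2 at 3 h, and Jak2, Insl6, Cd274, Pdcd1lg2 and Ric1 at 6 h.

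Of 14 measured genes of interferon-gamma signalling and PD-L1 upkeep, 6 rose and 1 fell in pretreated cells at 3 h, and 6 rose and 1 fell at 6 h. In naive cells 8 rose and 2 fell at 3 h, and 9 rose and none fell at 6 h. Of all genes 1.86% rose and 0.998% fell in pretreated cells at 3 h, and 2.89% and 2.76% at 6 h. In naive cells 3.37% of all genes rose and 2.09% fell at 3 h, and 7.48% and 10.8% at 6 h. Irf1, a factor known to drive Cd274, rose by 1.28 ± 0.15 in pretreated cells (adjusted p = 0.00044) and by 2.93 ± 0.15 in naive cells (adjusted p = 1.68e-07) at 3 h, and the difference of these changes passed, at -1.65 ± 0.21 (adjusted p = 0.00822). At 0 h Irf1 was 1.11 ± 0.10 higher in pretreated cells (adjusted p = 8.9e-05), and Socs1, an inhibitor of JAK kinases, 0.54 ± 0.10 higher (adjusted p = 0.0279). Socs1 rose by 3.3 ± 0.15 in pretreated cells (adjusted p = 5.66e-07) and by 4.25 ± 0.15 in naive cells (adjusted p = 8.97e-09) at 3 h. Socs3, a related inhibitor, was lower in pretreated than in naive cells at 6 h by a log2 difference of -1.39 ± 0.21 (adjusted p = 0.015). Ifngr1, a chain of the receptor, fell at 3 h by 0.75 ± 0.14 in pretreated cells (adjusted p = 0.0125) and by 0.93 ± 0.14 in naive cells (adjusted p = 0.00164). Cmtm6, which keeps PD-L1 at the cell surface, rose by 0.47 ± 0.14 in naive cells at 6 h (adjusted p = 0.0298).

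Havcr2 (array feature 10375443), which encodes TIM-3, fell in naive cells and was higher in pretreated than in naive cells at 6 h. It stood at 10.36 and 10.48 in pretreated cells at 6 h, against 10.46 and 10.77 at 0 h. It stood at 9.0 and 8.88 in naive cells at 6 h, against 10.60 and 10.28 at 0 h. The naive 6 h arrays lay more than 1 log2 unit below the other 6 arrays of set 1, which overlapped one another. At 3 h Havcr2 was 10.98 and 10.72 in pretreated cells, against 11.47 and 11.34 at 0 h. It was 10.49 and 10.24 in naive cells at 3 h, against 11.15 and 11.35 at 0 h. The 3 h arrays lay below the 0 h arrays in both kinds of cells, and the naive 3 h arrays below the pretreated ones. The log2 change at 6 h was -0.19 ± 0.16 in pretreated cells (adjusted p = 0.74) and -1.5 ± 0.16 in naive cells (2.82-fold lower, adjusted p = 3.42e-05). At 3 h it was -0.55 ± 0.16 in pretreated cells (adjusted p = 0.0926) and -0.88 ± 0.16 in naive cells (1.85-fold lower, adjusted p = 0.00415). The naive 3 h change did not pass without naive 0 h replicate 4 (-0.79, adjusted p = 0.0512), without naive 3 h replicate 2 (-0.76, adjusted p = 0.0642) or with no array-set term (-0.48, adjusted p = 0.526).

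At 6 h Havcr2 averaged 10.42 in pretreated cells and 8.94 in naive cells (n = 2 each), a log2 difference of 1.48 ± 0.16 (2.79-fold, adjusted p = 0.00175). This call held with each of the 16 arrays left out and was lost with no array-set term (adjusted p = 0.221). At 0 h the difference was 0.17 ± 0.11 (adjusted p = 0.814) and at 3 h 0.49 ± 0.16 (adjusted p = 1). The pretreated minus naive difference in the 6 h change was 1.30 ± 0.22 with an adjusted p of 0.049. That call was lost with any 1 of the 16 arrays left out, at an adjusted p of 0.0519 to 0.298, with values of 1.14 to 1.46.

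Lgals9 (array feature 10388902), which encodes galectin-9, stood between 11.87 and 12.78 on every array and changed in no comparison. It stood at 12.56 and 12.78 in pretreated cells at 3 h, against 12.50 and 12.43 at 0 h, and at 12.45 and 12.44 in pretreated cells at 6 h, against 12.22 and 11.90 at 0 h. In naive cells it was 12.38 and 12.72 at 3 h, against 12.17 and 12.33 at 0 h. It was 12.13 and 12.13 in naive cells at 6 h, against 11.87 and 12.07 at 0 h. The later arrays lay above the 0 h arrays of the same cells in each of these 4 pairs of groups, and the whole range over 16 arrays was 0.91. The changes were 0.21 in pretreated and 0.30 in naive cells at 3 h, and 0.38 and 0.16 at 6 h, with adjusted p between 0.2 and 0.617. The largest of them, in pretreated cells at 6 h, had a 95% confidence interval of 0.07 to 0.70 on the log2 scale. Pretreated and naive cells differed by 0.12 to 0.31 at the 3 times, with no call.

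Cd69 (array feature 10548333), the early activation antigen, had the largest change of the 9 genes in each of the 4 comparisons with 0 h. It stood at 11.95 and 12.05 in pretreated cells at 3 h, against 9.08 and 9.08 at 0 h. It stood at 11.47 and 11.69 in naive cells at 3 h, against 7.35 and 6.84 at 0 h. At 0 h and at 3 h the pretreated arrays lay above the naive ones. At 6 h Cd69 was 11.30 and 10.60 in pretreated cells, against 8.56 and 8.18 at 0 h. It was 12.53 and 11.73 in naive cells at 6 h, against 7.88 and 6.83 at 0 h. In this set the order turned round, with pretreated arrays above naive ones at 0 h and below them at 6 h. The log2 change at 3 h was 2.92 ± 0.34 in pretreated cells (7.57-fold, adjusted p = 0.000486) and 4.48 ± 0.34 in naive cells (22.3-fold, adjusted p = 5.56e-06). At 6 h it was 2.58 ± 0.34 in pretreated cells (5.99-fold, adjusted p = 0.000741) and 4.77 ± 0.34 in naive cells (27.4-fold, adjusted p = 2.01e-06).

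At 0 h Cd69 averaged 8.72 in pretreated cells and 7.23 in naive cells over 4 arrays each, a log2 difference of 1.5 ± 0.24 (2.82-fold, adjusted p = 0.00771). The difference was 1.01 within set 1, where it did not pass alone (adjusted p = 0.746), and 1.98 within set 2 (adjusted p = 0.00422). The pretreated change of Cd69 minus the naive change was -1.56 ± 0.48 at 3 h (adjusted p = 1) and -2.19 ± 0.48 at 6 h (adjusted p = 0.147), and neither passed. Nor did the level difference at 6 h, -1.18 ± 0.34 (adjusted p = 0.145). Without replicate 2 of the naive 6 h arrays the 6 h difference of changes was -2.59 and passed (adjusted p = 0.0411).

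S1pr1, the lymphocyte exit receptor that CD69 protein binds, moved the other way from Cd69. Its mean was 6.33 in pretreated cells at 3 h, against 9.68 at 0 h, and 6.77 at 6 h, against 10.56 at 0 h. In naive cells it was 6.22 at 3 h, against 10.39 at 0 h, and 6.77 at 6 h, against 11.08 at 0 h. S1pr1 fell in all 4, with log2 changes of -3.35 and -3.79 in pretreated cells and of -4.17 and -4.3 in naive cells (each ± 0.18 SE, adjusted p of 5.18e-08 to 1.57e-06). The 3 h means are below the dim level of 6.5, so these sizes are uncertain. Of the 9 listed partner genes, S1pr2 and Sphk1, a receptor for sphingosine-1-phosphate and a kinase that makes it, rose in naive cells at 3 h, by 0.76 and 0.73. In naive cells at 3 h 3.37% of all genes rose. S1pr1 was the only one of the 9 to fall. Of all genes 0.998% and 2.76% fell in pretreated cells at 3 h and 6 h, and 2.09% and 10.8% in naive cells. None of the 9 differed between pretreated and naive cells at any of the 3 times. Of all genes 0.808% were higher and 0.155% lower at 0 h, and 0.015% differed at 3 h. At 6 h 0.431% were higher and 0.271% lower, so a count of none is near these shares.

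For each of the 9 genes the 3 genes with the most similar pattern over the 16 arrays are named, by Pearson's r on values centred within each set. The arrays share cells, sets and groups, so r describes a shared pattern over groups and carries no test. Cd274 was most like Casp4 (0.985), Prr5l (0.984) and Calhm6 (0.982). Cd86 was most like Slamf8 (0.988), Gbp8 (0.982) and Parp11 (0.98). For Cd40 the genes were Stx11 (0.986), Pgs1 (0.983) and Rmdn3 (0.983). Cd69 went with Il15ra (0.986), Rmdn3 (0.985) and Samd9l (0.984), so Rmdn3 stood in both lists. For Pdcd1lg2 they were Abhd16a (0.97), Crim1 (0.956) and Clcn7 (0.955). Icosl came closest to Ncoa5 (0.958), Rab20 (0.938) and Cry1 (0.937). Havcr2 was closest to Itgb2 (0.963), Apobec1 (0.936) and Dusp19 (0.935). Cd80 and Lgals9, which passed no test, had lower values, at most 0.912 with Ms4a7 for Cd80 and 0.898 with Misp for Lgals9.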

How the data were processed

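RNA was measured on 16 Affymetrix arrays of 1 colour. The authors deposited log2 intensities, and the labels name biotin and the Affymetrix protocol. How the background was corrected and the arrays normalized is not given in the sources, and nothing was normalized again. Their number, 2 arrays per group and set, limits the precision. Of 35557 features 21789 had 1 gene symbol, 1621 several and 12147 none in the platform annotation, which can be old. Features with several symbols or none were left out. For 999 genes with several features, Cd80 among them, the feature with the highest mean was used, which gave 19938 genes.

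In limma 3.58.1 (R 4.3.3) each group of a set had its own mean, 8 means in all, which left 8 residual degrees of freedom beside 4.26 from the prior. Contrasts stayed within a set; those at 0 h were the mean of both sets. Moderated two-sided p-values were adjusted after Benjamini-Hochberg, over 19938 genes. The fit was also run on simulated data. The simulated arrays varied independently of each other, so that run does not tell how the fit behaves where arrays share variation. The 9 members and the gene lists were chosen with earlier results of these data known. All members are named, with the called genes of each list by size and role and the 3 most similar genes per member.

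The arrays of each set could also be split by position in the title numbering, but the labels do not say that this pairs them. Differences between the 2 arrays of a group correlated at 0.082 to 0.662 across genes between groups of a set, over 0.1 in 11 of 12 pairs of groups, so the positions share variation. With no label for it and 1 pair not over 0.1, the split was kept as an alternative. Alternatives were other array-set terms, that split as a block, each set alone, filters and features, quantile normalization, other variance settings, array weights, a 2-fold limit and each array left out. The second Cd80 feature was added after seeing the data. Sequences came from RefSeq tables of GRCm38.p6. Python 3.11.15 with matplotlib 3.10.9 drew the figures.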

Additional observations from a re-analysis of the deposited data

Results flagged for a closer look

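Cd274 in pretreated cells at 0 h had 1 array far below the other 3: replicate 4, of set 2, stood at 9.585, and the gap to the next array made up 0.842 of the group's range, above the limit used for 4 arrays. The other 3 pretreated arrays lay between 10.92 and 11.17. The 4 arrays come from both sets, whose medians differ, and the naive 0 h array at the same position, replicate 4, was also the lowest of its 4, at 8.227. Without that array the pretreated 3 h change of Cd274 was 1.73 in place of 2.53, with an adjusted p from limma of 0.303. Chance alone flags about 1 in 20 groups. The cause was not tested.

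Havcr2 responded differently in pretreated and naive cells at 6 h by the contrast of the 2 changes, 1.30 on the log2 scale with an adjusted p from limma of 0.049. Both naive 6 h arrays were below both naive 0 h arrays, whereas pretreated arrays of the 2 times overlapped. With any 1 of the 16 arrays left out the contrast did not pass.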

How the results depend on the processing

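Of 23 called results of the 9 genes, 19 kept the call with each array left out in turn, 16 under every other alternative and 15 under all, and none of the 23 changed sign. The filter at 6.5 removes Pdcd1lg2, so its naive 6 h call was not tested under that alternative and is counted as kept without it. The 8 exceptions are Havcr2 in naive cells at 3 h, in pretreated against naive cells at 6 h and in the 6 h difference of changes, Cd274 in pretreated cells at 3 h, Cd40 in pretreated cells at 6 h, Cd86 in pretreated cells at 3 h and at 0 h, and Cd69 at 0 h. Cd274 in pretreated cells at 3 h also missed the threshold in set 2 alone, with trend and robust settings and with array weights (limma, adjusted p = 0.0945, 0.0948 and 0.129). Of 67 uncalled results of the 9 genes 18 passed under at least 1 alternative.

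Counts are given below in the order pretreated 3 h, pretreated 6 h, naive 3 h and naive 6 h against 0 h, pretreated against naive at 0 h, 3 h and 6 h, the difference of changes at 3 h and 6 h, and the naive 6 h minus 3 h change. Deposited values gave 4, 3, 5, 7, 2, 0, 1, 0, 1 and 0 of the 9 genes, and 569, 1126, 1088, 3653, 192, 3, 140, 16, 29 and 345 of all genes. For the 9 genes, only counts that moved by more than 1.5 times are repeated. With no array-set term they were 5 for pretreated 6 h, 1 for 0 h, 0 at 6 h, 0 for the 6 h difference and 2 for the last. With an additive term they were 5, 2 at 6 h, 5 for the 6 h difference and 1 for the last. Set 1 alone gave 0 at 0 h and 0 for the 6 h difference. The filter at 6.5, trend with robust settings and array weights each gave 2 at 6 h, and array weights 0 for the 6 h difference.

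The half-set as replicate block gave 5 for pretreated 6 h, 4 at 6 h, 1 for the 3 h and 4 for the 6 h difference. Over all genes the block gave 1272, 1895, 1925, 4832, 684, 76, 845, 31, 302 and 1252. For the 9 genes it added 14 calls and lost 0. The labels do not say that the positions pair the arrays. Under the block Cd80 passed in naive cells at -0.59 (3 h, adjusted p = 0.0322) and -0.54 (6 h, adjusted p = 0.0235), and Cd274 at 0 h at 1.24 (adjusted p = 0.0122). Cd40, Icosl and Cd69 were lower in pretreated than in naive cells at 6 h (adjusted p = 0.0217, 0.0229 and 0.00532), and the difference of changes passed for Cd40 (-1.90, adjusted p = 0.0263), Cd86 (-1.51, adjusted p = 0.0413) and Cd69 (-2.19, adjusted p = 0.00514) at 6 h and for Cd69 at 3 h (-1.56, adjusted p = 0.0416). Cd274 passed in pretreated cells at 6 h (adjusted p = 0.0024), and Pdcd1lg2 in pretreated cells at 3 h and 6 h and in naive cells at 3 h (adjusted p = 0.0099, 0.00293 and 0.0104).

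Over all genes, a limit of 2-fold left 250 for pretreated 3 h, 466 for pretreated 6 h, 487 for naive 3 h, 1310 for naive 6 h, 85 at 0 h and 67 at 6 h. No array-set term gave 100 at 0 h, 1 at 3 h, 9 at 6 h, 2 and 13 for the differences and 1288 for the last. The additive term gave 923 for pretreated 3 h, 273 at 6 h, 10 and 245 for the differences and 1088 for the last. Set 1 alone gave 52 at 0 h, 29 at 6 h and 14 for the 6 h difference, and set 2 alone 74 at 0 h and 8 for the 3 h difference. Array weights gave 245 for pretreated 3 h, 1 at 3 h, 572 at 6 h and 751 for the last. The cause was not tested in any of these.

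With 1 array left out at a time, the 9 genes gave 3 to 4, 2 to 5, 4 to 5, 7, 2, 0, 1 to 3, 0, 0 to 3 and 0 to 1 calls. All genes gave 219 to 604, 486 to 1122, 543 to 1161, 2217 to 3808, 142 to 203, 1 to 6, 13 to 406, 8 to 17, 4 to 157 and 63 to 447. Where this leaves a group 1 array in its set, that array is taken to vary as other groups do. Intensity over background limits Pdcd1lg2, which was below 6.5 on 13 of 16 arrays.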

Other observations

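Of 20 other inhibitory receptors and their ligands, 4 rose and 2 fell in naive cells at 6 h, where 7.48% of all genes rose and 10.8% fell, so the share that fell is near that of all genes. Lair1, an inhibitory receptor for collagen, rose by 1.65 ± 0.25 on the log2 scale (SE, limma, adjusted p = 0.000467), and at 0 h it was 0.98 ± 0.17 higher in pretreated than in naive cells (adjusted p = 0.0141). Timd4, a receptor for phosphatidylserine of the TIM family, rose by 1.26 ± 0.28 (adjusted p = 0.00621), with a dim 0 h mean of 6.08. Pvr, the ligand of TIGIT and CD226, rose by 0.96 ± 0.24 (adjusted p = 0.015), and Cd226 itself had means of 5.87 at 6 h and 5.21 at 0 h, both dim. Cd200r1, the receptor through which CD200 quiets myeloid cells, fell by 0.91 ± 0.23 in pretreated cells (adjusted p = 0.0381) and by 1.37 ± 0.23 in naive cells at 6 h (adjusted p = 0.00118). Ceacam1, which has been described as a partner of TIM-3, fell by 1.29 ± 0.17 in naive cells at 6 h (adjusted p = 0.000229). The 1 fall in pretreated cells at 6 h (Cd200r1) and the 1 difference at 0 h (Lair1) were the only calls of this list in the other 9 comparisons. Of all genes 2.76% fell in pretreated cells at 6 h and 0.808% were higher in pretreated cells at 0 h.

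Among 13 ligands and receptors of the TNF family that costimulate T cells, 2 calls were made over the 10 comparisons. Tnfrsf18, the receptor GITR, rose by 0.52 ± 0.12 in pretreated cells at 6 h (adjusted p = 0.0277), where 2.89% of all genes rose. Tnfsf18, its ligand, had means of 6.27 at 3 h and 5.23 at 0 h in naive cells, both dim, and passed at 1.04 ± 0.27 (adjusted p = 0.0403). In naive cells at 3 h 3.37% of all genes rose. Uncalled changes of the 13 ran from -0.14 to 1.63 in naive cells at 6 h. They ran from -0.88 to 2.23 in the naive 6 h minus 3 h change.

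Cd274, Pdcd1lg2 and Cd80 were higher on the lower-numbered array of the pair in 8 of 8 groups within sets, by 0.15 to 1.64, 0.18 to 0.60 and 0.15 to 1.05. Over all genes 838 (4.2%) did so and 372 (1.87%) were lower in all 8. For Cd80 this holds for the feature used. The second Cd80 feature was lower on the lower-numbered array in pretreated cells at 0 h of set 1 (8.25 against 8.49). The cause was not tested.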
